A study of Mus musculus with 79 samples.

Results

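Macrophages were sorted from the regenerating mouse nerve after immediate repair, and their RNA at day 14 was compared with that at day 5. The members are the 16 sequenced libraries labelled macrophage, immediate repair and day 5 or 14, out of 79 libraries in the series, and they were chosen by these labels alone. Each day has 8 libraries, 4 from males and 4 from females, each from a different animal. The study asked how waiting before a nerve graft alters the response of macrophages, Schwann cells and the distal stump, and the immediate group shows the course of macrophage gene expression when there was no wait.

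All of these animals were S100β-eGFP mice, a line in which the human S100β promoter drives green fluorescent protein in Schwann cells. In every one of them the common peroneal nerve was freshly cut and joined to the distal stump of the tibial nerve through a silicone conduit, on the day of the injury. They also had an earlier sham operation in which the site was opened and closed, so that their surgery matched that of the delayed group. At day 5 or day 14 the tissue bridging the conduit was dissociated, and viable cells high for CD16/32, CD11b, F4/80 and CD14 were sorted after cells bearing markers of lymphocytes, granulocytes, fibroblasts, endothelium and red cells had been gated out. Bridges were not pooled. The labels give no dates for surgery, sorting or sequencing, so that the day of collection and any processing batch that followed it cannot be told apart.

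Macrophages in an injured nerve derive mostly from blood monocytes that enter in the first days, together with the resident macrophages of the nerve. They release cytokines and chemokines that bring in further leukocytes, take up the debris of myelin and dying cells, and sense the low oxygen of the bridge. Over the following days such cells usually pass from an inflammatory to a resolving program, in which lipid handling, antigen presentation by class II molecules of the major histocompatibility complex (MHC) and matrix remodelling become more prominent.

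The libraries held between 15751765 and 28499405 estimated counts. Day 5 libraries were deeper, with a median of 23299826 counts against 18154208 at day 14 (exact permutation test on the difference of means, p = 0.00357), and yet fewer genes had a count in them, 12110 to 13020 against 12820 to 13540 (exact permutation p = 0.00155). Mean TMM factors were 0.946 at day 5 and 1.06 at day 14 (exact permutation p = 0.00186), the 100 most abundant genes took 37.5 and 35.3% of the counts (exact permutation p = 0.0219) and the ribosomal RNA gene Rn45s took 0.0237 and 0.0395% (exact permutation p = 0.032), and the part of these differences in the results was not tested. One library stood apart from its group. Immediate-day5-MAC replicate 8, from a female, had a TMM scaling factor of 1.09 where the others of day 5 had 0.883 to 0.975, its 100 most abundant genes took 33.0% of its counts where they took 36.6 to 39.5% in the others, and on the first principal component, which held 24.8% of the variance, it lay among the day 14 libraries. A pair of libraries were high in fibroblast markers. Their summed level was 1500 CPM in Immediate-day14-MAC replicate 7, against 51.2 to 122 in the other 7 of day 14, and 355 CPM in Immediate-day5-MAC replicate 4, against 4.48 to 37.8 in the other 7 of day 5. Counts of genes are therefore also given below without these libraries.

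The sorted cells carried the RNA of macrophages. Emr1, which encodes F4/80, lay at 1004, 1294 and 1522 CPM at day 5 and 759, 1088 and 1469 at day 14, Csf1r, the receptor for the main macrophage growth factor, at 736, 1033 and 1555 and 904, 1180 and 1462, and the Fc receptor gene Fcgr3 at 508, 648 and 929 and 598, 738 and 925 (lowest, median and highest of 8 libraries in each case, in TMM-scaled CPM). None of these 3 genes passed the test. Of 5 sort markers 2 fell. Cd14 went from 6697, 9652 and 12070 CPM to 4074, 6032 and 6968, a log2 fold change of -0.71 (SE 0.14), and Itgam, which encodes CD11b, from 686, 758 and 974 to 371, 431 and 524, a log2 fold change of -0.82 (SE 0.09). The adjusted p was 0.00256 for Cd14 and 2.1e-05 for Itgam (edgeR), and the 8 libraries of each day did not overlap for Itgam. Of 8 identity markers 1 rose and 2 fell. Lyz2, a lysozyme, rose from 7070, 12040 and 16170 to 13100, 15610 and 21250 CPM (log2 fold change 0.49, SE 0.14, adjusted p = 0.0338), a call lost in 5 of 16 fits that left out 1 library, with both other filters on low counts and without the 2 libraries high in fibroblast markers. Cd68, a lysosomal glycoprotein, fell with a log2 fold change of -0.30 (SE 0.09), a call lost in 8 of 16 fits that left out 1 library, with scaling to the total count and without the 2 libraries high in fibroblast markers. Fcgr1, the high affinity IgG receptor, fell with one of -0.60 (SE 0.13). The summed level of the sort markers had a mean of 11620 CPM at day 5 and 8742 at day 14 (exact permutation p = 0.000466), and that of the identity markers one of 14790 and 21390 CPM (exact permutation p = 0.000311), most of it Lyz2.

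Markers of other cell types were mostly near 0. Of the Schwann cell list, 16 genes long, Sox10 was at 0 in 7 of 8 day 5 libraries and in 8 of 8 at day 14, and the list's summed level came almost wholly from Pmp22, which macrophages also express. The T cell sum rose from a mean of 8.51 to 27.3 CPM (exact permutation p = 0.000155, the smallest such a design can give), of which Cd28 was the largest share, while Cd3e was at 0 in 8 of 8 libraries at day 5 and in 6 of 8 at day 14. The fibroblast sum had means of 63.3 CPM at day 5 and 271 at day 14 (exact permutation p = 0.325), and without the 2 high libraries the difference was 72.8 CPM (exact permutation p = 0.000583). The dendritic cell sum was 204 CPM at day 5 and 219 CPM at day 14 (exact permutation p = 0.609), and the endothelial sum 37.3 and 28.3 CPM (exact permutation p = 0.122). The sums for mural cells, B cells, NK cells, eosinophils with mast cells, and muscle with adipocytes had means from 0.856 to 12.1 CPM. Of these 5 sums 3 had a higher mean at day 14 with an unadjusted p under 0.05, the mural sum at 5.96 and 11.95 CPM (exact permutation p = 0.00311), that of eosinophils with mast cells at 8.17 and 12.1 CPM (exact permutation p = 0.0314, 0.0628 after adjustment over the marker sums) and that of muscle with adipocytes at 0.856 and 1.72 CPM (exact permutation p = 0.0196). In sorted bulk cells, fewer cells of a type and less RNA per cell cannot be told apart, and the part these admixtures had in the results was not tested except where a value is given.

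Of 8507 genes tested with edgeR's quasi-likelihood test, 964 (11.3%) differed between the days at a Benjamini-Hochberg adjusted p under 0.05. There were 453 (5.33%) higher at day 14 and 511 (6.01%) lower, and 99 of the rises and 109 of the falls were at least 2-fold. For 186 genes (2.19%) the 8 libraries of one day did not overlap the 8 of the other, 85 of them higher at day 14 and 101 lower. These shares are the background against which the counts in the gene lists below are to be read. The direction of the balance depends on the scaling. TMM scaling sets the bulk of genes level between the days, with a median log2 fold change of 0.0121 over all genes, whereas scaling to the total count alone moved that median to 0.176 and called 1504 genes, 1224 higher and 280 lower. For that reason the counts of a list are given under both scalings where they differ. Without the 2 libraries high in fibroblast markers 706 genes were called, and without Immediate-day5-MAC replicate 8 there were 1119.

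Levels below are in TMM-scaled CPM, as the lowest, the median and the highest of the 8 libraries of a day. Changes are log2 fold changes of day 14 over day 5 from edgeR, with their standard error (SE) and adjusted p. The values describe each gene on its own, and levels of different genes are not compared, since CPM takes no account of transcript length. The lists share some genes.

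The plot of the share of each gene list called gives the outline. The shares of genes lower at day 14 were highest for chemokines, cytokines and genes of the hypoxia response and glycolysis, at 60, 55 and 48.7%, and the share of genes higher at day 14 was highest for MHC class II presentation, at 70%. Ribosomal protein genes and genes of oxidative phosphorylation were called in 1.3 and 1.59% of cases, below the background of 11.3%.

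**Figure D1:**
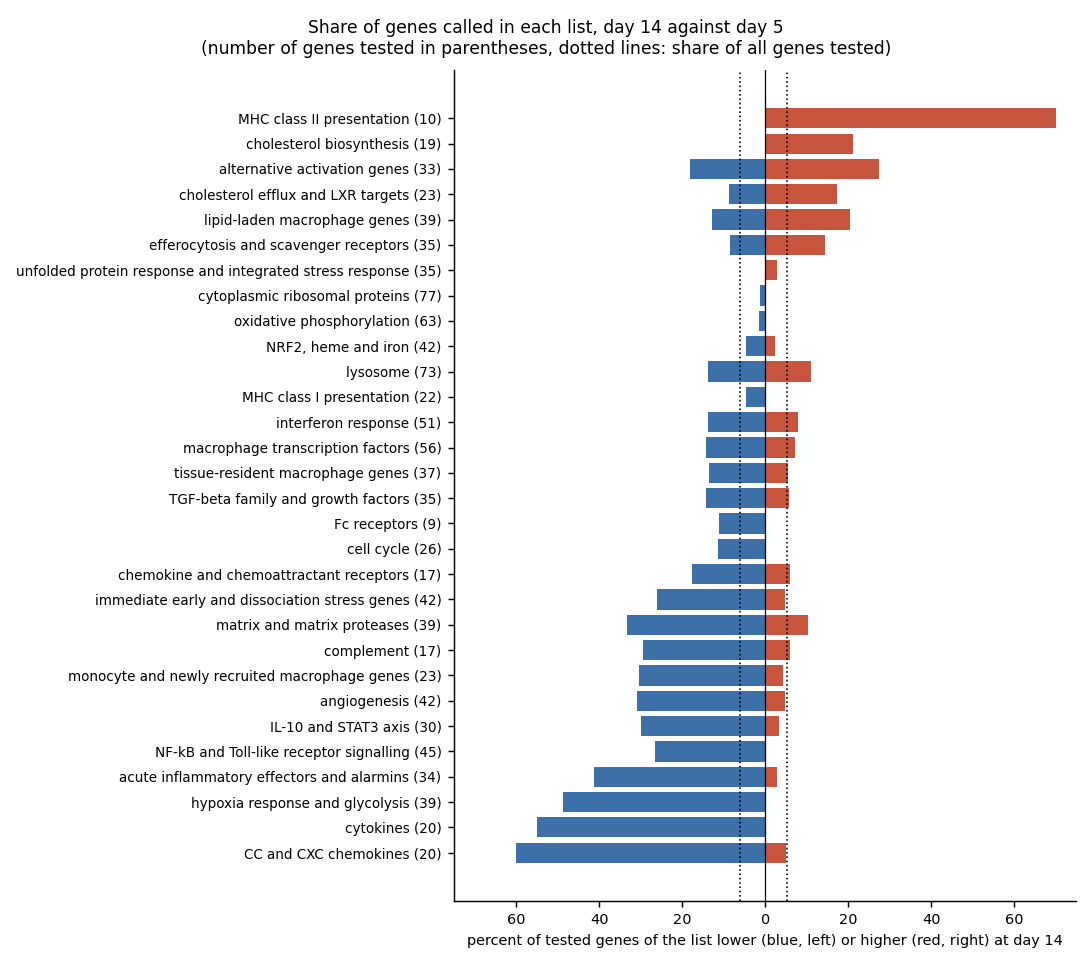
Percent of the tested genes of each of 30 gene lists that were lower (blue, left) or higher (red, right) at day 14 than at day 5, edgeR adjusted p under 0.05, with the number of genes tested in parentheses and dotted lines at the shares of all genes tested. Chemokines, cytokines and glycolysis lie far to the left and MHC class II presentation far to the right, at 70% of 10 genes.

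Chemokines, the secreted proteins that draw leukocytes into tissue, gave the highest share of falls. Of 20 tested, 12 fell and 1 rose (11 and 1 with scaling to the total count), with a median log2 fold change of -1.23 against 0.0121 over all genes. The falls took in both families. Among the CXC chemokines that attract neutrophils, Cxcl5 was at 30.4, 153 and 247 CPM at day 5 and at 0.719, 6.33 and 19.9 at day 14 (log2 fold change -4.34, SE 0.58, adjusted p = 0.00011). No library of day 14 reached the lowest of day 5. Ppbp, the precursor of a platelet basic protein that also acts on neutrophils, was at 97.5, 201 and 468 CPM at day 5 and 3.24, 7.88 and 21.7 at day 14 (log2 fold change -4.41, SE 0.45, adjusted p = 6.71e-06), again with no overlap. Pf4, or CXCL4, went from 1803, 2357 and 3527 to 487, 589 and 1096 CPM (log2 fold change -1.88, SE 0.18, adjusted p = 5.11e-06), without overlap as well. Ppbp and Pf4 are abundant in platelets, and other platelet genes were near 0 on both days, Gp9 at a median of 0.0407 CPM at day 5 and 0.0449 at day 14 and Gp1bb at 0 in 6 and 7 of 8 libraries. The erythroid and platelet sum had means of 245 CPM at day 5, most of it Ppbp, and 25.1 at day 14 (exact permutation p = 0.000311). At day 14 it was 112 CPM in Immediate-day14-MAC replicate 4, most of it from other genes of the list, and without that library the difference between days was -232 CPM.

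The remaining neutrophil attractants fell by less and with some overlap. Cxcl1 was at 1692, 4544 and 6656 CPM and then at 462, 1467 and 3148, a change of -1.63 (SE 0.30). Cxcl2 lay at 5622, 14970 and 25630 CPM at day 5 and at 5159, 5702 and 8511 at day 14, a change of -1.37 (SE 0.23), and Cxcl3 had one of -1.67 (SE 0.31) (adjusted p of 0.00174, 0.000641 and 0.00179, edgeR). For Cxcl1 and Cxcl2 the overlap came from Immediate-day5-MAC replicate 8 alone, the lowest of its group in both.

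Among the CC chemokines, Ccl2, the main attractant of monocytes, was at 748, 1380 and 2091 CPM at day 5 and 240.0, 439.9 and 631 at day 14 (log2 fold change -1.66, SE 0.22, adjusted p = 0.000103). Ccl7, which shares its receptor CCR2, was at 1516, 2612 and 4317 and 519, 955 and 1199 CPM (log2 fold change -1.57, SE 0.23, adjusted p = 0.000198). For both genes the 2 days were fully separate. Ccl3 and Ccl4, which attract monocytes and T cells, fell by 1.34 (SE 0.26) and 1.42 (SE 0.26) on the log2 scale, Ccl12 by 1.12 (SE 0.33) and Ccl6 by 0.86 (SE 0.20). The call of Ccl12 (adjusted p = 0.031, edgeR) was lost in 7 of 16 fits that each left out 1 library. The gene that rose was Ccl24, an eosinophil attractant made by alternatively activated macrophages, from 5.6, 14 and 20.6 to 10.5, 25.5 and 63.3 CPM (log2 fold change 1.13, SE 0.32, adjusted p = 0.0291), with overlapping groups and a call lost in 4 of those 16 fits.

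**Figure D2:**
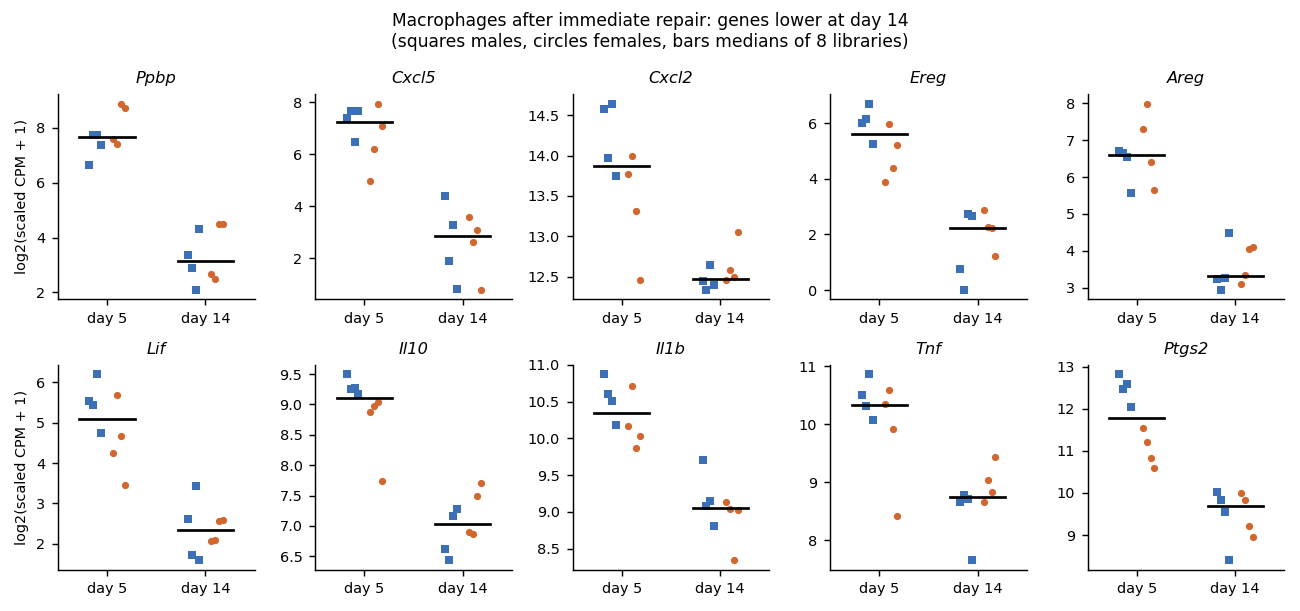
Level of 10 genes lower at day 14 in each library, as log2 of TMM-scaled CPM plus 1, for day 5 (left) and day 14 (right), with squares for males, circles for females and bars at the medians of 8 libraries. Ppbp, Cxcl5, Ereg, Areg, Lif, Il10, Il1b and Ptgs2 show no overlap of the days, while 1 low female of day 5, replicate 8, overlaps day 14 in Cxcl2 and Tnf.

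Among the receptors for chemokines and related attractants, 3 of 17 fell and 1 rose. C5ar1, the receptor for complement C5a, moved from 1497, 1703 and 1861 CPM to 807, 928 and 1098 (log2 fold change -0.84, SE 0.09, adjusted p = 6.71e-06) with fully separate groups. Ccr1 fell with a log2 fold change of -0.56 (SE 0.12) and Ccrl2 with one of -1.07 (SE 0.20). P2ry14, a receptor for UDP-glucose, rose from 1.47, 5.17 and 10.3 to 12.1, 13.8 and 18 CPM (log2 fold change 1.33, SE 0.29, adjusted p = 0.00605), and no library of day 14 was as low as the highest of day 5. Cxcr4, the receptor for CXCL12, did not pass the test, at 15.7, 25.7 and 41.9 and 19.7, 25.6 and 44.1 CPM (log2 fold change 0.14 (SE 0.21)).

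Several of the largest falls lie beside each other in the genome. On chromosome 5, from 90759360 to 91148432 (GRCm38, GENCODE vM21), a stretch of 389 kb holds 11 protein-coding genes, of which 8 were tested, and each of these 8 was lower at day 14: Cxcl5, Ppbp, Pf4, Cxcl3, Cxcl1, Cxcl2, Ereg and Areg, in that order. The stretch was chosen after the values were seen, so that this count is a description. Ereg and Areg at its far end encode epiregulin and amphiregulin, ligands of the epidermal growth factor receptor. Ereg was at 13.6, 49.5 and 103 CPM at day 5 and at 0, 3.75 and 6.31 at day 14 (log2 fold change -3.93, SE 0.58, adjusted p = 0.00023). Areg was at 46.3, 96.7 and 254 CPM and then at 6.63, 8.92 and 21.4 (log2 fold change -3.24, SE 0.35, adjusted p = 1.07e-05). Both were separate between the days in all libraries. Hbegf, which encodes a further ligand of this receptor and lies on chromosome 18, fell by 1.11 on the log2 scale (SE 0.25; adjusted p = 0.00736, edgeR).

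**Figure D3:**
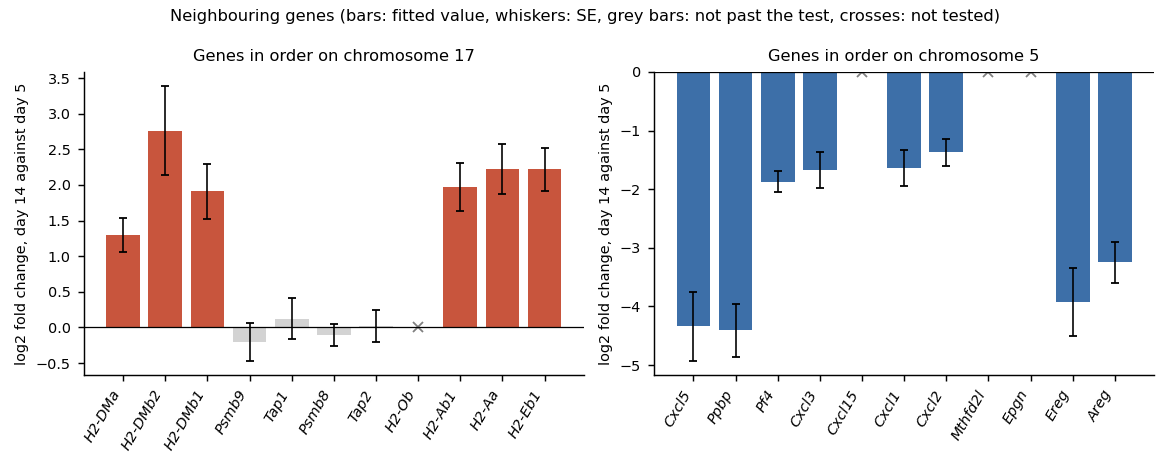
Log2 fold change of day 14 over day 5 (bars, with SE as whiskers) of genes in their order along a stretch of chromosome 17 (left) and of chromosome 5 (right), with grey bars for genes that did not pass the test and crosses for genes that were not tested. The 8 tested genes on chromosome 5 are all lower at day 14, while on chromosome 17 the 6 class II genes are higher at day 14 and the 4 class I genes between them, Psmb9, Tap1, Psmb8 and Tap2, did not pass.

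The promoters of Cxcl2 and Areg are shown to place 2 of these neighbours beside each other, as the 250 bases before the start of transcription in RefSeq (GRCm38.p6, plus strand, chr5:90903649-90903898 and chr5:91139349-91139598). Capitals mark in Cxcl2 a match, 97 bases before the start, to the binding motif of NF-kB, the factor that inflammatory signals activate, and in Areg a match, 61 bases before the start, to the cAMP response element (CRE), TGACGTCA.
Cxcl2: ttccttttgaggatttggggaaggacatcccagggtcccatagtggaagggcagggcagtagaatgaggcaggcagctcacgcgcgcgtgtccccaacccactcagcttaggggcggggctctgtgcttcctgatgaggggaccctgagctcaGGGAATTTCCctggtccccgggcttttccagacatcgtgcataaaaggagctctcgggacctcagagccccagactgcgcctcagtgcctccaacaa
Areg: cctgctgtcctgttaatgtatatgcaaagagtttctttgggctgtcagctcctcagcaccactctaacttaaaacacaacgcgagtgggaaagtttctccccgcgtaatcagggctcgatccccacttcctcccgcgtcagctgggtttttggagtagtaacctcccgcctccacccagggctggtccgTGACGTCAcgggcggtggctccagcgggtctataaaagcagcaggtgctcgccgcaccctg
Motifs were searched on both strands in the window from 250 bases before to 50 bases after the start. Shares of genes count a gene where any of its promoters held the motif, whereas shares of all promoters count each promoter, so that the 2 kinds of share are not alike. The NF-kB motif, written as GGGA, any 4 bases and CC, was found in the promoters of 33.3% of the genes lower at day 14, 24.1% of those higher, 30.3% of 6487 tested genes with a promoter and 20.7% of 32851 promoters. The CRE was in 4.55% of genes lower, 4.26% of genes higher, 3.78% of tested genes and 1.79% of all promoters.

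Cytokines, the secreted signals between immune cells, fell in 11 of 20 cases and rose in 0 (10 and 1 with scaling to the total count), with a median log2 fold change of -0.83. The 11 include both signals that drive inflammation and signals that limit it. Il1b, interleukin-1β, was at 930.4, 1311 and 1877 CPM at day 5 and 323, 532 and 838 at day 14 (log2 fold change -1.33, SE 0.17, adjusted p = 8.54e-05), with no overlap. Il1a went from 453, 1233 and 2299 to 267, 492 and 691 CPM (log2 fold change -1.58, SE 0.27, adjusted p = 0.000912) and Tnf, tumour necrosis factor, from 340.1, 1294 and 1868 to 199.6, 428 and 694 CPM (log2 fold change -1.48, SE 0.26, adjusted p = 0.00122). In both genes the lowest of day 5 was replicate 8, and it alone lay within the range of day 14. Il6 was at 14.5, 27.4 and 97.4 CPM at day 5 and 3.98, 12.8 and 20.4 at day 14 (log2 fold change -1.42, SE 0.37, adjusted p = 0.0163), with overlap, and its highest value came from Immediate-day5-MAC replicate 1. Its call was lost with the replicate block (adjusted p = 0.0598, edgeR) and in females alone, where the log2 fold change was -0.37. In females alone the calls of Il1a and Tnf were lost as well.

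The calls among colony stimulating factors and the interleukin-6 family were falls as well. Csf3, which drives neutrophil production, was at 148, 803 and 2162 CPM at day 5 and 41.1, 70.5 and 244 at day 14 (log2 fold change -3.31, SE 0.48, adjusted p = 0.000198), and the groups overlapped. Csf1, the macrophage growth factor, fell from 15.5, 19.8 and 30.9 to 6.06, 10.01 and 18.2 CPM (log2 fold change -0.97, SE 0.22, adjusted p = 0.00757). Lif, leukaemia inhibitory factor, an interleukin-6 family cytokine that acts on neurons and Schwann cells, was at 9.88, 34.1 and 73.2 CPM at day 5 and at 1.99, 4.08 and 9.71 at day 14 (log2 fold change -3.03, SE 0.39, adjusted p = 7.69e-05), without overlap. Osm, oncostatin M of the same family, was at 98.6, 158 and 199.5 and 39.4, 64 and 84 CPM (log2 fold change -1.29, SE 0.16, adjusted p = 3.83e-05), also without overlap. Clcf1, another member, fell with a log2 fold change of -0.69 (SE 0.20) (adjusted p = 0.0303, edgeR), a call lost with scaling to the total count and in 8 of the 16 fits that left out 1 library. Tnfsf9, the ligand of the T cell receptor 4-1BB, was at 326, 429 and 841 CPM at day 5 and 68.9, 91.3 and 159 at day 14 (log2 fold change -2.22, SE 0.20, adjusted p = 4.44e-06), with separate groups.

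The promoter of Lif (RefSeq, GRCm38.p6, plus strand, chr11:4257318-4257567) is shown for its match to the motif of AP-1, the factor formed by Fos and Jun proteins, 228 bases before the start, and a second match, 178 bases before it, to the NF-kB motif, both in capitals.
Lif: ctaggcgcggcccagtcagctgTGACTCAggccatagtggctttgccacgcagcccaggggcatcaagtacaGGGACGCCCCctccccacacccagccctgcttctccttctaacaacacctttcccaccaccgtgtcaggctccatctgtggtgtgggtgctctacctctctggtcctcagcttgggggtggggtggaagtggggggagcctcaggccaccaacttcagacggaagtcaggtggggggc
The AP-1 motif TGANTCA was in the promoters of 46 of 396 genes lower at day 14 (11.6%), against 5.4% of genes higher, 6.54% of tested genes and 7.81% of all promoters. These shares are given without a test.

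Il10, the cytokine by which macrophages restrain inflammation, belonged to the largest falls. Its level was 213, 549.6 and 726 CPM at day 5 and 85.3, 131 and 208 at day 14 (log2 fold change -1.95, SE 0.22, adjusted p = 1.44e-05). All 8 libraries of day 14 were below all 8 of day 5, and the nearest of day 5 was replicate 8, at 213 CPM where the others of its group had 470 to 725. Of 30 genes of the interleukin-10 and STAT3 axis 9 fell and 1 rose (8 and 1 with scaling to the total count). Il10rb, the shared chain of the interleukin-10 receptor, fell from 484, 537 and 566 to 377, 394 and 459.8 CPM (log2 fold change -0.39, SE 0.07, adjusted p = 0.00123), again without overlap. Il10ra, the chain that binds the cytokine, lay at 22.8, 51.8 and 78.8 and 42.8, 76.5 and 100.5 CPM (log2 fold change 0.51 (SE 0.21)) and did not pass. Stat3, the factor this receptor activates, did not pass either, with a log2 fold change of -0.08 (SE 0.15) that was 0.08 with scaling to the total count. The gene that rose was Etv3, a repressor induced by interleukin-10 in macrophages, from 162, 248 and 428 to 333, 422 and 613 CPM (log2 fold change 0.77, SE 0.19, adjusted p = 0.0137).

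Other inflammatory effectors fell in 14 of 34 cases, and 1 rose (13 and 1 with scaling to the total count). Ptgs2, the cyclooxygenase that makes prostaglandins in inflammation, was at 1535, 3598 and 7256 CPM at day 5 and 336, 828 and 1039 at day 14 (log2 fold change -2.40, SE 0.32, adjusted p = 0.00011). The days were separate. At day 5 the 4 males had the 4 highest values, as the plot of genes lower at day 14 shows, and the change was -2.92 (SE 0.31) in males and -1.52 (SE 0.27) in females on the log2 scale. In the test of a day effect differing by sex, the smallest adjusted p over all genes was 0.519 (edgeR). Trem1, a receptor that amplifies Toll-like receptor signals, was at 30.5, 64.7 and 89.8 and 7.03, 12.2 and 20.1 CPM (log2 fold change -2.25, SE 0.22, adjusted p = 6.11e-06), with no overlap. Ltb4r1, the leukotriene B4 receptor, went from 8.42, 21.8 and 43.6 to 1.11, 2.94 and 8.68 CPM (log2 fold change -2.76, SE 0.37, adjusted p = 0.000117) and overlapped at its margin. Saa3, an acute phase protein made by macrophages, was spread widely, at 237, 1359 and 4159 CPM at day 5 and 39.3, 139 and 1304 at day 14 (log2 fold change -2.16, SE 0.69, adjusted p = 0.0492), and its call was lost in 12 of 16 fits that left out 1 library. Plaur, the urokinase receptor, fell by 1.06 (SE 0.17) on the log2 scale and F13a1, a transglutaminase of clotting that monocyte-derived cells express, by 1.09 (SE 0.19).

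S100a8, a calcium-binding alarmin, fell from 6.49, 24.1 and 65.1 to 5.82, 9.33 and 11.2 CPM (log2 fold change -1.68, SE 0.37, adjusted p = 0.00611). It is also a main gene of neutrophils. Of the 3 neutrophil markers tested 2 fell, S100a8 and Mmp8, whose values stand with the matrix proteases below. Camp was at 0 in 5 and 5 of 8 libraries and Elane at 0 in 5 and 7, and Csf3r, which macrophages share, was at 107, 116 and 182 and 77.5, 117 and 231 CPM. The neutrophil sum, most of it Csf3r on both days, was 196.5 CPM at day 5 and 155 CPM at day 14 (exact permutation p = 0.115). The sum without Csf3r was not tested, nor was the part of neutrophils in the values of S100a8 and Mmp8.

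Genes of NF-kB and Toll-like receptor signalling fell in 12 of 45 cases and rose in 0 (8 and 4 with scaling to the total count). In males alone 7 fell and 2 rose, and in females alone 0 fell and 0 rose. The leading falls were in genes of the IκB family and A20, which restrain or tune NF-kB. Nfkbia, which encodes IκBα, was at 2203, 2628 and 3406 CPM at day 5 and 1184, 1355 and 2063 at day 14 (log2 fold change -0.90, SE 0.13, adjusted p = 0.000162), and no library overlapped. Tnfaip3, or A20, fell from 1163, 1804 and 2333 to 688, 970.0 and 1174 CPM (log2 fold change -0.89, SE 0.13, adjusted p = 0.000206). Nfkbiz fell with a log2 fold change of -0.82 (SE 0.13) and Nfkbib with one of -0.78 (SE 0.11).

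Immediate early genes, which respond within minutes to stimulation and also to the stress of dissociating a tissue, fell in 11 of 42 cases and rose in 2 (10 and 4 with scaling to the total count). Fosl1, an AP-1 subunit, was at 16.5, 28.7 and 39.6 CPM at day 5 and 9.78, 13.8 and 20.3 at day 14 (log2 fold change -1.10, SE 0.17, adjusted p = 0.000361). Dusp1, a phosphatase that ends MAP kinase signals, was at 1047, 1170 and 1595 and 786, 866 and 1007 CPM (log2 fold change -0.49, SE 0.09, adjusted p = 0.00218), Gadd45b at 662, 897 and 1165 and 339, 442 and 616 (log2 fold change -0.91, SE 0.15, adjusted p = 0.000629), and both were separate between days. Dusp5 fell by 0.85 (SE 0.13) on the log2 scale. The 2 that rose were Hsph1, a heat shock protein, with a log2 fold change of 0.63 (SE 0.16), and Rhob, a small GTPase, with one of 0.60 (SE 0.14). By the study's methods the tissue of both days was digested with the same enzymes for the same time, and the part of dissociation in these values was not tested.

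Of 42 genes of blood vessel growth 13 fell and 2 rose (12 and 3 with scaling to the total count, and 0 to 3 rises when single libraries were left out), and of 35 genes of the TGF-β family and growth factors, which include Ereg, Areg and Hbegf, 5 fell and 2 rose (5 and 4, and 1 to 3 rises). Vegfa, vascular endothelial growth factor, was at 250.1, 300.2 and 368 CPM at day 5 and 118, 179 and 253 at day 14 (log2 fold change -0.72, SE 0.14, adjusted p = 0.00232), and the groups overlapped by 1 library of each day. Pecam1, an adhesion molecule of endothelium and some leukocytes, fell from 15.4, 21.4 and 45.1 to 7.39, 9.38 and 21.4 CPM (log2 fold change -1.17, SE 0.26, adjusted p = 0.00628), beside other endothelial genes near 0, Cdh5 at medians of 0.367 and 0.254 CPM and Tek at 0 in all 16 libraries. Thbs1, an inhibitor of vessel growth, fell by 0.98 (SE 0.26) on the log2 scale. Ecm1, a secreted matrix protein, was at 618, 955 and 1065 CPM and then at 353, 411 and 530.5 (log2 fold change -1.02, SE 0.13, adjusted p = 5.63e-05), without overlap. Tgfb1, transforming growth factor β1, did not pass, at 61, 90.00 and 117 and 70.4, 83.2 and 107 CPM.

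In the list of matrix genes and proteases 13 of 39 fell and 4 rose (11 and 5 with scaling to the total count; the rises ran from 1 to 6 when single libraries were left out, with 1 without Immediate-day14-MAC replicate 3 or 4, and were 0 in males alone), and members of a single protease family went in opposite directions. Mmp9, a gelatinase, was at 115, 164 and 214 CPM at day 5 and 7.09, 17.4 and 57.7 at day 14 (log2 fold change -2.98, SE 0.32, adjusted p = 1.07e-05), with no overlap. Mmp8, the collagenase typical of neutrophils, was at 4.48, 42.6 and 71.4 and 0.82, 4.00 and 6.49 CPM (log2 fold change -3.30, SE 0.43, adjusted p = 9.28e-05), where only Immediate-day5-MAC replicate 4, at 4.48, lay within the range of day 14. Mmp12, the macrophage elastase, rose from 106, 288 and 541 to 333, 753 and 1155 CPM (log2 fold change 1.22, SE 0.33, adjusted p = 0.0222), and Mmp19 from 240.0, 430.1 and 920.3 to 509.8, 1001 and 1344 (log2 fold change 0.92, SE 0.28, adjusted p = 0.0405). Both overlapped, and Mmp19 lost its call in 12 of the 16 fits without 1 library while Mmp12 lost it in 1. Timp1, an inhibitor of these enzymes, fell by 1.40 (SE 0.28) on the log2 scale, and Vcan, versican, by 1.60 (SE 0.24).

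Of 39 genes of the hypoxia response and glycolysis 19 fell and 0 rose (13 and 0 with scaling to the total count), with a median log2 fold change of -0.62. In males alone 11 of them fell and in females alone 2. Most of these changes were less than 2-fold. Aldoa, aldolase, was at 1249, 1579 and 1796 CPM at day 5 and 832, 962 and 1080 at day 14 (log2 fold change -0.69, SE 0.09, adjusted p = 0.000101). Pkm, pyruvate kinase, lay at 2405, 2789 and 3442 and 1311, 1842 and 2064 CPM (log2 fold change -0.72, SE 0.11, adjusted p = 0.000262), and Eno1, enolase, at 994, 1273 and 1612 and 469, 684 and 906 (log2 fold change -0.86, SE 0.13, adjusted p = 0.000287). All 3 were separate between the days in every library. Slc2a1, the glucose transporter GLUT1, was separate too, at 334, 426 and 523 and 171, 245 and 325 CPM (log2 fold change -0.74, SE 0.13, adjusted p = 0.000869). Pdk1, which keeps pyruvate out of mitochondria, fell by 1.27 (SE 0.31) on the log2 scale. Gapdh fell by 0.92 (SE 0.13), although reads of its many pseudogenes may be counted with it. Bnip3, a mitochondrial target of hypoxia, changed by -0.91 (SE 0.28) on the log2 scale, and its call was lost in 10 of 16 fits that left out 1 library and with scaling to the total count.

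Genes of the respiratory chain and translation gave few calls. Cell cycle genes were called in 11.5% of cases, all of them falls, against 11.3% called and 6.01% lower over all genes. Of 63 oxidative phosphorylation genes 1 fell and 0 rose (0 and 1 with scaling to the total count), Atp5b, an ATP synthase subunit, with a log2 fold change of -0.25 (SE 0.08) that lost its call in 13 of 16 fits without 1 library. Of 77 cytoplasmic ribosomal protein genes 1 fell and 0 rose (0 and 1), and the call of that gene, Rplp0 (-0.34 (SE 0.10)), was lost in 7 of 16 such fits. Of 68 cell cycle genes 26 were expressed highly enough to be tested, and 3 fell and 0 rose (2 and 1): Cdkn1a, the inhibitor p21, with separate groups at 764, 934 and 1309 and 445, 625 and 726 CPM (log2 fold change -0.70, SE 0.13, adjusted p = 0.00203), Hmgb2 with a log2 fold change of -0.67 (SE 0.14) and Pcna with one of -0.41 (SE 0.13), a call lost in 12 of 16 fits without 1 library and with scaling to the total count. Mki67, the usual marker of proliferation, lay at 12.4, 25.3 and 30.6 and 18.3, 30.1 and 40.3 CPM and did not pass (adjusted p = 0.187, edgeR).

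Genes of monocytes and newly recruited macrophages fell in 7 of 23 cases and 1 rose (7 and 2 with scaling to the total count, and 0 to 4 rises when single libraries were left out). Plac8 was at 21, 53.9 and 93 CPM at day 5 and 8.06, 12 and 32.9 at day 14 (log2 fold change -1.80, SE 0.34, adjusted p = 0.00184). Ms4a4c fell by 0.82 (SE 0.17) on the log2 scale. In both the groups overlapped. Among 37 genes of tissue-resident macrophages, 2 rose and 5 fell (7 and 3 with scaling to the total count, and 1 to 4 rises when single libraries were left out). Those that fell include Il10 and Pf4, described above. Log2 fold changes in this list were above 0 for 25 genes and below 0 for 12. They ran from -1.95 to 3.32, the highest that of Cd4, described below. Of 9 Fc receptor genes 1 fell, Fcgr1. Of 17 complement genes 5 fell and 1 rose (3 and 1, and 3 to 5 falls when single libraries were left out), the fallers led by C5ar1, Itgam and Cfp, or properdin, which was at 920.1, 1135 and 1335 CPM and then at 558, 663 and 782 (log2 fold change -0.79, SE 0.10, adjusted p = 4.74e-05) without overlap. The riser was Itgax, a complement receptor subunit, which is described below.

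MHC class II presentation was the list with the highest share of rises. Of 10 genes tested 7 rose and 0 fell (8 and 0 with scaling to the total count), with a median log2 fold change of 1.94 against 0.0121 over all genes. Cd74, the invariant chain that guards the class II groove, was at 987, 2191 and 2809 CPM at day 5 and 6268, 7863 and 11310 at day 14 (log2 fold change 2.02, SE 0.19, adjusted p = 5.11e-06). H2-Aa, the α chain of I-A, was at 81.4, 242 and 435 and 556, 976 and 1976 CPM (log2 fold change 2.22, SE 0.35, adjusted p = 0.000439). H2-Ab1, its β chain, was at 172, 498 and 809.6 and 983, 1621 and 3287 CPM (log2 fold change 1.97, SE 0.34, adjusted p = 0.000888). H2-Eb1, the β chain of I-E, went from 59.3, 225 and 375 to 671, 1009 and 1469 CPM (log2 fold change 2.22, SE 0.31, adjusted p = 0.000124). In each of these 4 genes every library of day 14 was above every library of day 5.

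The DM molecules, which load peptides onto class II, rose too. H2-DMa was at 28.6, 46.6 and 66.5 CPM at day 5 and 57.3, 112 and 162 at day 14 (log2 fold change 1.30, SE 0.24, adjusted p = 0.00154). H2-DMb1 lay at 2.45, 21.9 and 47.5 and 50.9, 67.5 and 152 CPM (log2 fold change 1.91, SE 0.38, adjusted p = 0.00285) with separate groups, and H2-DMb2 at 0.257, 2.55 and 4.62 and 0.708, 15.6 and 34.3 CPM (log2 fold change 2.76, SE 0.63, adjusted p = 0.00726). H2-DMb1 and H2-DMb2 are near-identical copies between which the counting could split reads, so that their separate values are uncertain. The call of H2-DMb2 was lost with limma voom (adjusted p = 0.293) and with the replicate block (adjusted p = 0.0599, edgeR). This gene reached 5 CPM at day 14 only, and it reached the filter in 10 of the 16 fits without 1 library. The 3 genes that did not pass were Ctss, a protease of the invariant chain, Ifi30, a thiol reductase, and Cd86, a costimulatory molecule, at 215, 265 and 414 and 229, 331 and 436 CPM. Ciita, which encodes the master activator of class II genes, was too low to be tested, with medians of 1.23 CPM at day 5 and 4.17 at day 14.

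**Figure D4:**
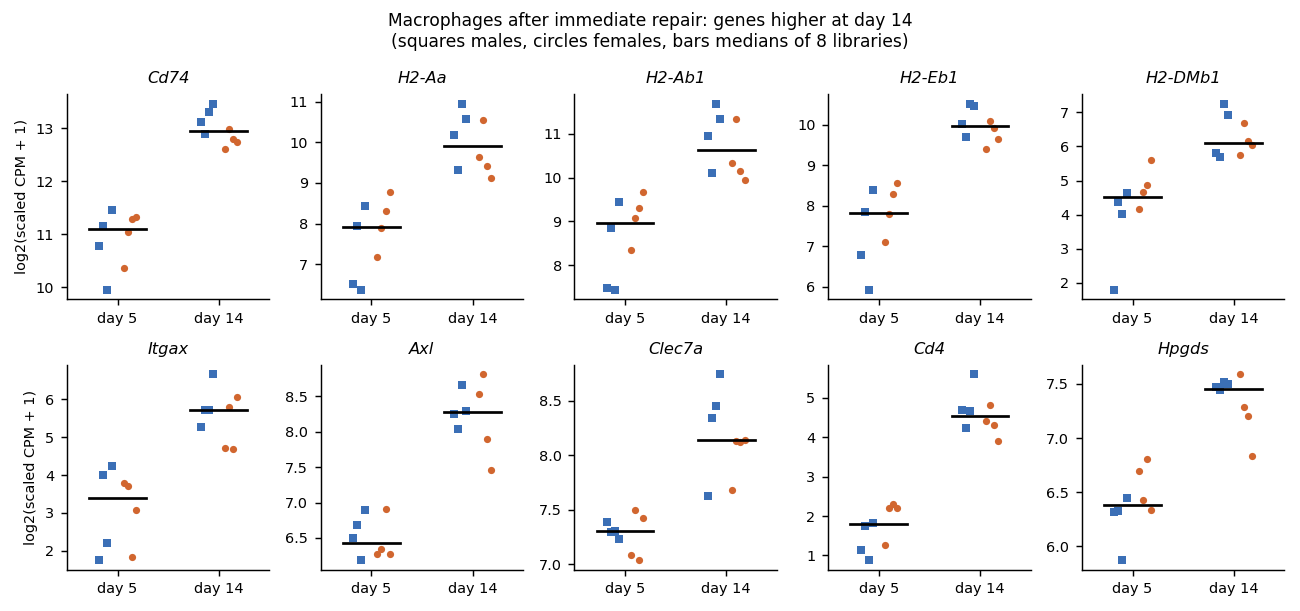
Level of 10 genes higher at day 14 in each library, as log2 of TMM-scaled CPM plus 1, for day 5 (left) and day 14 (right), with squares for males, circles for females and bars at the medians of 8 libraries. In all 10 genes, Cd74 and the 4 other class II genes among them, no library of day 14 is as low as the highest of day 5.

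Class II proteins are also the hallmark of dendritic cells, whose defining genes Flt3 and Zbtb46 were near 0. Flt3 was at 0 in 5 of 8 libraries on each day, Zbtb46 had medians of 1.58 and 1.6 CPM, and Ccr7, a receptor of migrating dendritic cells, was at 1.81, 26.6 and 45.5 and 0.359, 5.41 and 25.7 CPM. The log2 fold changes of the 5 dendritic cell markers tested ran from -1.45 (SE 0.73) for Ccr7 to 1.75 (SE 0.76) for Il4i1, an amino acid oxidase, which was at 0, 2.64 and 11.2 and 0, 12.9 and 34.2 CPM (adjusted p = 0.147, edgeR), and the part of dendritic cells in the class II values was not tested. Without the 2 libraries high in fibroblast markers the fitted change of H2-Aa was 2.40 on the log2 scale. The class I pathway gave another picture. Of its 22 genes 1 fell and 0 rose (1 and 1 with scaling to the total count). The faller was H2-Q7, with a log2 fold change of -0.93 (SE 0.18), a gene with near-identical neighbours.

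The class II genes lie together on chromosome 17. From 34119541 to 34316674 (GRCm38, GENCODE vM21) a stretch of 197 kb, chosen after the values were seen, holds 11 protein-coding genes, of which 10 were tested, and 6 of these, H2-DMa, H2-DMb2, H2-DMb1, H2-Ab1, H2-Aa and H2-Eb1, were higher at day 14. The other 4 tested are class I genes set among them. The fitted log2 values were -0.20 (SE 0.27) for Psmb9, 0.12 (SE 0.29) for Tap1, -0.11 (SE 0.15) for Psmb8 and 0.03 (SE 0.22) for Tap2, and none of these 4 passed.

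Promoters of 3 class II genes are shown for the motifs they share. Class II genes are known to be read through a conserved set of elements just before the start, among them the X box and the Y box. Each sequence is the 250 bases before the start in RefSeq (GRCm38.p6), at chr17:34287824-34288073 on the minus strand for H2-Aa, chr17:34305617-34305866 on the plus strand for H2-Eb1 and chr17:34152941-34153190 on the plus strand for H2-DMb1. Capitals mark the Y box CTGATTGG in H2-Aa and H2-Eb1 (51 and 62 bases before the start). The Y box contains ATTGG, the reverse complement of CCAAT. Also marked are ATTGG in H2-DMb1 (61 bases before), a CCAAT in H2-Eb1 (35 bases before), and in H2-Aa a CRE and an NF-kB match (74 and 131 bases before).
H2-Aa: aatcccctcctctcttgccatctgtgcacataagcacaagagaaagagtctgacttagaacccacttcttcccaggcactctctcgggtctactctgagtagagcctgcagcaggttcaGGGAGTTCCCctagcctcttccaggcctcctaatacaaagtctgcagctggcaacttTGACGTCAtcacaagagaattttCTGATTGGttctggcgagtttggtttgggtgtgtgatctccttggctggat
H2-Eb1: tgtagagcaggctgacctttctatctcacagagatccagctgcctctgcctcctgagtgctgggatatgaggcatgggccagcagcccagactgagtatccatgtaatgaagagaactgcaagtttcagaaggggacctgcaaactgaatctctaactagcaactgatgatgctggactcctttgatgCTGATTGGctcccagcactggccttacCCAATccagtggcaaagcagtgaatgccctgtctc
H2-DMb1: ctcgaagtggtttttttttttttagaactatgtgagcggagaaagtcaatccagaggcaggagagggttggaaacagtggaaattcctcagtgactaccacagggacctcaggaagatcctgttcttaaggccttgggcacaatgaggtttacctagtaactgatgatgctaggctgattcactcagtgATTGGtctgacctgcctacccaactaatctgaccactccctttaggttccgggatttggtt
Of the 7 class II genes that rose, 5 have a promoter in the RefSeq table. All 5 hold CCAAT in the searched window, as do 42.3% of tested genes and 37.4% of all promoters, and 2 of 5 hold the full Y box, as do 6.14% of tested genes and 4.1% of all promoters.

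Genes of lipid-laden macrophages, cells filled with myelin or other lipid, rose in 8 of 39 cases and fell in 5 (16 and 4 with scaling to the total count). Itgax, which encodes CD11c, was at 2.35, 9.8 and 17.8 CPM at day 5 and 24.9, 51.2 and 101 at day 14 (log2 fold change 2.47, SE 0.42, adjusted p = 0.000696), with no overlap. Atp6v0d2, a subunit of the lysosomal proton pump in macrophages and osteoclasts, went from 24.1, 56.2 and 166 to 162, 283 and 524 CPM (log2 fold change 2.24, SE 0.35, adjusted p = 0.000382), and 1 library of day 5 came into the range of day 14. Gpnmb, a glycoprotein of lipid-loaded lysosomes, was at 234, 1001 and 1962 and 1090, 2806 and 3751 CPM (log2 fold change 1.31, SE 0.33, adjusted p = 0.0144) and overlapped. Among those that fell, Apoc2, an apolipoprotein that activates lipoprotein lipase, was at 40.6, 63.1 and 94.8 CPM and then at 18.2, 24.6 and 34.7 (log2 fold change -1.33, SE 0.19, adjusted p = 0.000162), and its groups were separate.

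Receptors and bridges for the uptake of dying cells rose in 5 of 35 cases and fell in 3 (7 and 2 with scaling to the total count). Axl, a receptor tyrosine kinase that recognises phosphatidylserine through bridging proteins, was at 71.6, 84.9 and 119 CPM at day 5 and 175, 308 and 449.5 at day 14 (log2 fold change 1.78, SE 0.17, adjusted p = 5.48e-06), with no overlap. Pros1, protein S, one of those bridging proteins, rose from 37.2, 70.7 and 93.9 to 89.3, 112 and 179.9 CPM (log2 fold change 0.93, SE 0.20, adjusted p = 0.00587). Mfge8, a bridge to integrins, rose from 6.06, 10.7 and 15.8 to 14.4, 26.1 and 98.1 CPM (log2 fold change 1.63, SE 0.35, adjusted p = 0.00505), and without the 2 libraries high in fibroblast markers its change was 1.74 (adjusted p = 0.0103, edgeR). Clec7a, or dectin-1, a receptor of β-glucans, was at 129.7, 157 and 179.6 and 196, 280.1 and 428 CPM (log2 fold change 0.91, SE 0.14, adjusted p = 0.000303) and separate. Cd300lf, another receptor for phosphatidylserine, went the other way, from 24.7, 66.4 and 138 to 13.2, 25.8 and 31.7 CPM (log2 fold change -1.53, SE 0.25, adjusted p = 0.000641).

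Lysosomal genes split, with 8 of 73 higher and 10 lower (14 and 5 with scaling to the total count). The number lower was 5 without Immediate-day5-MAC replicate 5, without Immediate-day14-MAC replicate 7 and without the 2 libraries high in fibroblast markers, 6 without Immediate-day14-MAC replicate 1 and 1 in each sex alone. Cathepsins went both ways. Ctsf rose from 0.781, 1.9 and 2.8 to 3.82, 7.21 and 11.2 CPM (log2 fold change 1.98, SE 0.27, adjusted p = 0.000124), with no overlap, and reached 5 CPM at day 14 only. Ctsk, the cathepsin of osteoclasts, rose from 47.6, 120.3 and 202 to 104, 208 and 360.1 (log2 fold change 0.94, SE 0.27, adjusted p = 0.0302), with overlap and a call lost in 4 of 16 fits that left out 1 library. Ctsl fell from 4428, 6523 and 8014 to 3309, 3882 and 4522 CPM (log2 fold change -0.69, SE 0.12, adjusted p = 0.000924), and Lgmn, the protease legumain, from 2335, 2679 and 3148 to 1720, 1863 and 2065 (log2 fold change -0.55, SE 0.08, adjusted p = 0.000235), the latter with fully separate groups. Acp5, tartrate-resistant acid phosphatase, was at 138, 162 and 215 and 244, 267 and 362 CPM (log2 fold change 0.75, SE 0.11, adjusted p = 0.000162) and separate. Ppt1, which removes fatty acids from proteins, fell by 0.48 (SE 0.08) on the log2 scale.

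Cholesterol genes rose in small numbers. Of 19 biosynthesis genes 4 rose and 0 fell (5 and 0 with scaling to the total count), and of 23 genes of cholesterol efflux and LXR, the sterol-sensing nuclear receptor, 4 rose and 2 fell (7 and 1, and 2 to 4 rises when single libraries were left out). Idi1, an isomerase of the pathway, was at 2.84, 4.75 and 9.81 CPM at day 5 and 5.56, 12.6 and 18.9 at day 14 (log2 fold change 1.18, SE 0.27, adjusted p = 0.00765), and Fdps, farnesyl diphosphate synthase, at 4.87, 7.46 and 9.22 and 8.97, 13.5 and 15.4 CPM (log2 fold change 0.78, SE 0.17, adjusted p = 0.00471). Abcg1 and Abca1, the pumps that export cholesterol, rose with log2 fold changes of 0.65 (SE 0.15) and 0.41 (SE 0.12), and the call of Abca1 was lost in 10 of 16 fits that left out 1 library. All 4 genes overlapped between days.

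Genes of alternative activation, the program that interleukin-4 induces, split between rises and falls, with 9 of 33 higher and 6 lower. The number higher was as low as 3 when single libraries were left out. Ear2, an eosinophil-associated ribonuclease, rose from 0, 0.428 and 1.22 to 2.31, 13 and 56.3 CPM (log2 fold change 5.25, SE 0.73, adjusted p = 0.000124), with separate groups, although it belongs to a family of close copies. Dcstamp, needed for the fusion of macrophages, rose from 0.0428, 1.62 and 3.41 to 2.12, 11.5 and 18.5 CPM (log2 fold change 2.56, SE 0.56, adjusted p = 0.0057). Both Ear2 and Dcstamp reached 5 CPM at day 14 only and so entered the test through that day. Irf4, a transcription factor of the program, rose from 3.53, 5.4 and 11 to 3.58, 10.6 and 36.2 CPM (log2 fold change 1.24, SE 0.39, adjusted p = 0.0464), a call lost in 10 of 16 fits without 1 library and without the 2 libraries high in fibroblast markers (adjusted p = 0.129, edgeR). Stat6, which interleukin-4 activates, did not pass, with a log2 fold change of -0.02 (SE 0.13) that was 0.13 with scaling to the total count.

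Further genes were among the 12 largest rises with separate groups and enough expression. Hpgds, which makes prostaglandin D2, was at 57.5, 82.5 and 111 CPM at day 5 and 113, 175 and 192 at day 14 (log2 fold change 0.95, SE 0.13, adjusted p = 0.000106). Wfs1, a membrane protein of the endoplasmic reticulum, was at 14.2, 20.9 and 26.7 and 36.1, 65.5 and 132 CPM (log2 fold change 1.85, SE 0.22, adjusted p = 2.68e-05). Dnmt3a, a DNA methyltransferase, was at 34, 48.2 and 70.9 and 84.6, 96 and 125 CPM (log2 fold change 0.97, SE 0.15, adjusted p = 0.000408). Ccdc88a, the actin-binding protein girdin, and Zfc3h1, a factor of nuclear RNA decay, rose with log2 fold changes of 1.09 (SE 0.12) and 0.97 (SE 0.16). The opposite case is Slco4a1, an organic anion transporter, which fell from 55, 144 and 346 to 18.6, 35.1 and 49.8 CPM (log2 fold change -2.19, SE 0.31, adjusted p = 0.000182) with separate groups.

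Other rises were steep at low levels, and these genes were chosen after their values were seen, apart from Cd4. Pla2g2d, Ephx1, Cd4, Ear2, Dcstamp, Ctsf, H2-DMb2 and Postn, 8 of the called genes named here, reached 5 CPM at day 14 only and so entered the test through the day on which they were high. Pla2g2d, a secreted phospholipase, was at 0, 0.0486 and 0.244 CPM at day 5 and 4.06, 5.8 and 17.8 at day 14 (adjusted p = 1.02e-06, edgeR), and since day 5 held only a few counts no fold change is given. Ephx1, an epoxide hydrolase, rose from 0.392, 1.33 and 4.24 to 11.8, 16.1 and 26 CPM (log2 fold change 3.51, SE 0.37, adjusted p = 9.79e-06), and the groups were separate. Cd4, the T cell coreceptor that some mouse macrophages also carry, was at 0.833, 2.45 and 3.92 and 14, 22.5 and 47.8 CPM (log2 fold change 3.32, SE 0.32, adjusted p = 5.11e-06), and Cd28, a T cell costimulatory receptor, at 1.97, 3.6 and 9.84 and 10.1, 20.3 and 32.7 (log2 fold change 2.01, SE 0.33, adjusted p = 0.000595). Both were separate between the days. The T cell genes Cd3d, Cd3e, Cd3g, Cd247 and Themis had a median of 0 on both days.

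Postn, periostin, a matrix protein of fibroblasts, rose from 0, 0.676 and 3.16 to 2.34, 8.31 and 114 CPM (log2 fold change 4.18, SE 0.89, adjusted p = 0.00449), and its highest value came from Immediate-day14-MAC replicate 7, with 2.34 to 14.4 in the other 7 of that day. Without the 2 libraries high in fibroblast markers its change was 2.99 on the log2 scale (adjusted p = 0.0154, edgeR). The other 4 fibroblast markers tested did not pass. Of these Col1a1 was at 0.23, 2.97 and 32.9 and 5.05, 12.1 and 304 CPM, with a log2 fold change of 2.89 that was 0.824 without Immediate-day14-MAC replicate 7 alone (adjusted p = 0.511, edgeR). Without both libraries high in fibroblast markers it passed, with a log2 fold change of 2.11 (adjusted p = 0.0178, edgeR), as it did with DESeq2, with scaling to the total count and without Immediate-day5-MAC replicate 4.

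Interferon response genes went both ways. Of 51 tested 4 rose and 7 fell, and with scaling to the total count 11 rose and 4 fell. The falls were 11 without Immediate-day5-MAC replicate 2, 13 without Immediate-day14-MAC replicate 6 and 14 with the replicate block, and the rises were 2 without Immediate-day5-MAC replicate 3, without Immediate-day14-MAC replicate 6 and without the 2 libraries high in fibroblast markers. Ifitm3, a membrane protein that blocks viral entry, was at 1009, 1233 and 1481 CPM at day 5 and 451, 657 and 728 at day 14 (log2 fold change -1.01, SE 0.12, adjusted p = 3.54e-05), with no overlap. Irf7, a regulator of type I interferon, and Isg15, a ubiquitin-like modifier, fell with log2 fold changes of -0.68 (SE 0.16) and -0.73 (SE 0.19). Iigp1 and Tgtp2, GTPases induced by interferon-γ, rose by contrast, with log2 fold changes of 1.90 (SE 0.53) and 1.65 (SE 0.35) and overlapping groups, and the call of Iigp1 was lost in 3 of 16 fits without 1 library. Cxcl10 did not pass, at 36, 102 and 125 CPM and 23, 40.4 and 98 CPM (log2 fold change -0.85 (SE 0.31); adjusted p = 0.0829, edgeR). It passed in 7 of 27 alternatives, among them DESeq2 (adjusted p = 0.028) and males alone, where the log2 fold change was -1.87 against -0.13 in females (adjusted p of the difference between the sexes = 0.519, edgeR). Ifng, the gene of interferon-γ itself, had a median of 0 on both days.

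Among 56 macrophage transcription factors 4 rose and 8 fell (5 and 6 with scaling to the total count). Klf2, which restrains inflammatory activation, was at 82.4, 104 and 160.5 CPM at day 5 and 14.1, 39 and 86.6 at day 14 (log2 fold change -1.28, SE 0.26, adjusted p = 0.00345). Id3, a factor of Kupffer cells, was at 37.1, 43 and 63 and 11.8, 21.4 and 39 CPM (log2 fold change -1.02, SE 0.22, adjusted p = 0.00475), and Ets2 at 304, 351 and 512 and 179.7, 234 and 272 (log2 fold change -0.67, SE 0.11, adjusted p = 0.000567), the last with separate groups. The risers included Bhlhe41, a factor of alveolar macrophages, at 3.68, 10.3 and 21.9 and 17.4, 27.3 and 33.8 CPM (log2 fold change 1.20, SE 0.28, adjusted p = 0.00914), and Cebpd, at 43.9, 74.8 and 127 and 106, 147 and 177 (log2 fold change 0.87, SE 0.17, adjusted p = 0.00293). Of 42 genes of the NRF2 response, heme and iron, 2 fell and 1 rose (2 and 7 with scaling to the total count). The fallers were the metallothioneins Mt1 and Mt2, which bind zinc, with log2 fold changes of -1.38 (SE 0.24) and -1.98 (SE 0.31), and the riser was Cp, the ferroxidase ceruloplasmin, with one of 1.45 (SE 0.33). Of 35 genes of the unfolded protein response 1 rose, Cebpg (0.41 (SE 0.10)), and 0 fell (3 and 0 with scaling to the total count).

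The same contrast was fitted in animals repaired after a delay, in 7 libraries of day 14 and 9 of day 5, which share no library with the immediate group. There 547 of 8529 genes (6.41%) were called, 280 higher and 267 lower. The labels do not say whether libraries of the same day were processed together across the repair groups. Of the 964 genes called after immediate repair 949 were also tested after delayed repair, and 927 of these (97.7%) had the same sign there. The share with the same sign over all genes tested was not computed, so that this value has no background beside it. Of the 949, 316 were called in that direction after delayed repair, which is 33.3% of them and 57.8% of the delayed calls. In the plot of both repair groups, 151 of 157 named genes have the same sign in both, and many of these genes were named for their values after immediate repair.

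**Figure D5:**
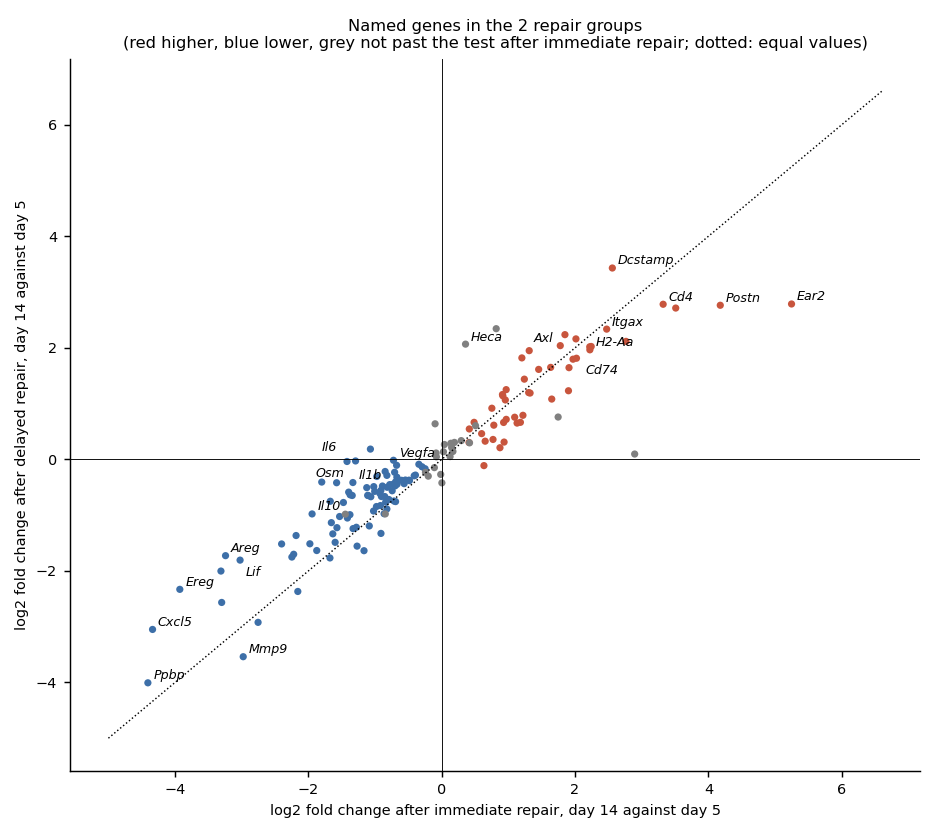
Log2 fold change of day 14 over day 5 for 157 named genes after immediate repair (x axis) and after delayed repair (y axis), red where higher, blue where lower and grey where the gene did not pass the test after immediate repair, with a dotted line at equal values. Signs are the same for 151 genes, while Osm, Il6 and Vegfa lie near 0 and Heca near 2 on the delayed axis.

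Among class II genes, Cd74 had 2.02 (SE 0.19) after immediate and 1.81 (SE 0.21) after delayed repair, and H2-Aa 2.22 (SE 0.35) and 1.96 (SE 0.25). Among the falls, Il10 had -1.95 (SE 0.22) and -0.98 (SE 0.24), Areg -3.24 (SE 0.35) and -1.73 (SE 0.26), Il1b -1.33 (SE 0.17) and -0.42 (SE 0.25), Il6 -1.42 (SE 0.37) and -0.04 (SE 0.32), and Vegfa -0.72 (SE 0.14) and -0.02 (SE 0.20) (log2 fold changes with SE, immediate first). A value past the threshold in one group only does not show that the groups differ, and that difference was tested on its own in all 32 macrophage libraries. The interaction of repair and day was called in 2 of 8949 genes (0.0223%), and 323 had an unadjusted p under 0.05. Neither Il10 nor Il1b, Il6 or Vegfa was among the 2.

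One of these 2 genes was Osm. Its change after immediate repair, -1.29 (SE 0.16), differed from that after delayed repair, -0.03 (SE 0.18), by -1.27 on the log2 scale (SE 0.24; adjusted p of the interaction 0.0328, edgeR), and at day 5 its mean was 158 CPM after immediate and 87.4 CPM after delayed repair. At day 14 the means were 64.3 and 85.7 CPM. The other was Heca, the homologue of the fly gene headcase, which was at 10.7, 15.8 and 30.9 and 11.7, 22.4 and 33.3 CPM after immediate repair (log2 fold change 0.36 (SE 0.22)) and had a change of 2.07 (SE 0.22) after delayed repair, a difference of -1.72 (SE 0.32; adjusted p = 0.0328, edgeR). Both calls depend on the processing. DESeq2 called 9 genes, these 2 among them, scaling to the total count called 0, and of 32 fits that each left out 1 library 18 called 0 genes and the others up to 3.

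Males and females could be compared within the immediate group. In the test of whether the day effect differed by sex edgeR called 0 of 8507 genes, with a smallest adjusted p of 0.519, while 680 had an unadjusted p under 0.05 and DESeq2 called 5. Fitted alone, the 8 male libraries gave 496 calls, 211 higher and 285 lower, and the 8 female libraries gave 105, 38 higher and 67 lower. Cd74 rose by 2.29 (SE 0.27) in males and 1.75 (SE 0.22) in females on the log2 scale, and Axl by 1.76 (SE 0.18) and 1.81 (SE 0.28). Il10 changed by -2.39 (SE 0.19) in males and -1.45 (SE 0.29) in females, and Cxcl5 by -4.34 (SE 0.72) and -4.30 (SE 0.73).

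Of the remaining genes that the study followed as RNA or protein, Cxcl16, a scavenger receptor and chemokine, was at 404, 527 and 602 CPM at day 5 and 313, 523 and 686 at day 14 (log2 fold change 0.04 (SE 0.13)) and did not pass. Cxcl12, a chemokine of stromal cells, was at 0, 0.83 and 39.6 and 4.74, 10.1 and 14.7 CPM, and its highest value came from Immediate-day5-MAC replicate 4, a library high in fibroblast markers. It did not pass (log2 fold change 0.82, adjusted p = 0.642, edgeR). It passed with DESeq2, without that library alone and without the 2 libraries high in fibroblast markers. Thbs4 and Chi3l1 were too low to be tested, with day 14 medians of 0.214 and 0.334 CPM.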

How the data were processed

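Macrophages of 16 libraries were analysed, 8 a day, beside 16 of the delayed group. Per the labels, cDNA of sorted cells was amplified with SMART-Seq v4. The submitters' processing notes name cutadapt 1.8, TopHat2 2.1.1, Cufflinks 2.2.1, Cuffnorm and the mm10 build. The authors deposited estimated counts per gene for 23361 genes, neither normalized nor filtered, and the program that wrote them is not given in the sources used here. Of these values 0.952% were not whole and were rounded. A total of 0 columns of the table had no sample. The authors' own test needs aligned reads, so edgeR 4.0.16 (R 4.3.3) was used, with TMM scaling, the quasi-likelihood test and Benjamini-Hochberg adjustment over all genes that reached 5 CPM in 6 or more libraries. Amplified cDNA without molecular identifiers does not count independent molecules. Each library came from 1 animal, and p-values measure the spread between animals.

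Library measures were compared with two-sided exact permutation tests over 12870 splits. The gene lists and the genes in them were chosen with earlier results of these data known, so that a list's count describes these libraries and is no independent support. Named genes were the 12 largest rises and 12 largest falls by log2 fold change among called genes with separate groups and a mean of at least 50 CPM at the higher day, up to 4 genes with the smallest p from each list, the macrophage markers, genes the study names, and genes of the interaction test. Some of these genes are not reported here. Other genes named, from the lists or as markers, fall outside this rule and were chosen after their values were seen. Alternatives were DESeq2 1.42.0, limma 3.58.1 (voom), scaling to the total count, other filters, a term for sex, a block for the replicate number, each sex alone and leaving out each library. Promoters are from RefSeq and gene positions from GENCODE. Scripts were tested on simulated data, where the day contrast recovered 96 of 100 genes changed 4-fold and 79 of 100 changed 2-fold among 8507, with 11 unchanged genes called. Checks of library identity found 0 of 120 pairs identical.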

Additional observations from a re-analysis of the deposited data

Results flagged for a closer look

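Values were flagged where 1 of the 8 libraries of a day stood apart from the other 7, with its gap to the nearest divided by the whole range above Dixon's critical value. Chance flags about 1 in 20 groups. Of 318 groups of genes 24 (7.55%) were flagged, and of 40 groups of library measures 9.

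Immediate-day5-MAC replicate 8 gave 7 of the gene flags, each time as the lowest of day 5 in TMM-scaled CPM. Il10 was at 213, Cxcl1 at 1690, Il1a at 453, Tnf at 340, Nfkbib at 206, Hbegf at 131 and Fosl1 at 16.5. An eighth, Atp5b, was at 540 against 649 to 725 in the others. The same library had a share of 33.0% of its counts in the 100 most abundant genes, a TMM factor of 1.09 and an endothelial sum of 68.6 CPM, the last against 23.6 to 43.3. Without it 1119 genes were called.

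The 2 libraries high in fibroblast markers gave a second set. Immediate-day14-MAC replicate 7 had Col1a1 at 304 CPM against 5.05 to 17.4, Postn at 114 against 2.34 to 14.4, a fibroblast sum of 1500, a mural sum of 26.0, an NK cell sum of 8.19 and a dendritic cell sum of 355 CPM. Immediate-day5-MAC replicate 4 had a fibroblast sum of 355 CPM, Cxcl12 at 39.6 against at most 2.42, and Mmp8 at 4.48 against 24.4 to 71.4.

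Single values elsewhere were as follows. Immediate-day5-MAC replicate 1 had Il6 at 97.4 CPM, Cd86 at 414 and H2-DMb1 at 2.45. Ccdc88a was at 35.8 CPM in replicate 7 and Cebpg at 58.9 CPM in replicate 5 of day 5. At day 14, replicate 8 had Cxcl2 at 8510 CPM, Ccr1 at 635, Cd86 at 229 and Cxcl16 at 313. Replicate 6 of day 14 had Pla2g2d at 17.8 CPM and Tap1 at 106 against 23.2 to 37.2. In replicate 4 of day 14 Tnf was at 200 CPM and the erythroid and platelet sum at 112 CPM.

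A pair of genes were flagged because their day effect differed between the repair groups in the edgeR interaction test. The effect after immediate repair minus that after delayed repair was -1.72 on the log2 scale for Heca and -1.27 for Osm.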

How the results depend on the processing

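The 964 calls between days became 1504 with scaling to the total count, 496 in males alone, 105 in females alone, 2251 at an unadjusted p under 0.05 and 208 when an absolute log2 fold change of at least 1 was also asked. Under DESeq2 (1296), limma voom (1414), other filters (963 and 845), sex as a covariate (1100), 4 groups in one fit (1059), and without the 2 libraries high in fibroblast markers (706; chosen after seeing the data) the count stayed within 1.5 times, and leaving out single libraries gave 764 to 1119. After delayed repair the 547 calls became 891 with DESeq2 and 1875 unadjusted, and 370 to 679 without single libraries. The interaction of repair and day had 2 calls, and 9 with DESeq2, 0 with scaling to the total count, 323 unadjusted and 0 to 3 without single libraries. The interaction of sex and day had 0 calls, and 5 of 2074 genes with an adjusted p in DESeq2, 680 unadjusted and 0 to 1 without single libraries. Of 20 library measures 12 had an exact p under 0.05, and 6 in each sex alone.

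Replicate numbers did not pair the libraries. Same-numbered libraries correlated between -0.218 and 0.456, 4 of 8 pairs were over 0.1 and 2 libraries correlated best with their own number. A replicate block gave 917 calls, 784 of them among the 964, and 535 after delayed repair.

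Of 135 called genes in the text, 119 kept their call in every fit without 1 library in which they passed the filter (115 of them passed it in all 16), 128 with scaling to the total count and 135 with DESeq2. In males alone 94 of 120 tested kept it and in females alone 43 of 124. None changed sign. Of 24 genes in the text that were tested and did not pass, 8 passed under some alternative, namely Fcgr3 and Heca in males alone (log2 fold changes 0.624 and 0.715), Cxcl10 in 7, Col1a1 in 4, Cxcl12 and Cd86 in 3 each, and Il10ra (sex as a covariate) and Mki67 (scaling to the total count) in 1 each. Genes that did not pass changed sign as follows, on the log2 scale. Csf3r, at 0.00217 in the fit reported, was at -0.007 with DESeq2, -0.0150 and -0.0151 with the other filters, -0.0701 with the replicate block, -0.00367 with 4 groups in one fit, -0.0299 in females and -0.172 to 0.0890 without single libraries. With scaling to the total count Ctss was at 0.084, Psmb8 at 0.0486, Tgfb1 at 0.07, Stat3 at 0.0802 and Stat6 at 0.127. In males Psmb8 was at 0.0154 and Psmb9 at 0.125. In females Tap1 was at -0.0205, Tap2 at -0.0590, Csf1r at -0.0236, Fcgr3 at -0.194, Tgfb1 at 0.0826, Heca at -0.0351 and Stat3 at 0.0425. Stat6 was at 0.289 in males and at 0.0150 with the replicate block. Without single libraries Stat6 ran from -0.0771 to 0.0759 (6 of 16 fits above 0), Cxcl16 from -0.0174 to 0.125 (2 of 16 below 0), Tap1 from -0.248 to 0.247 (1 of 16 below 0) and Tap2 from -0.124 to 0.105 (5 of 16 below 0). Tap2 was at -0.0909 without the 2 libraries. Among marker sums (day 14 minus day 5, in CPM) fibroblast markers were at -15.4 in males, NK cell markers at -0.161 in females, -0.708 without the 2 libraries and -0.690 to 0.615 without single libraries, and dendritic cell markers at -2.03 without the 2 libraries and -4.51 (without Immediate-day14-MAC replicate 7) to 25.6. The cause of these shifts was not tested.

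Depth limits genes of a few counts, and the estimated counts do not separate near-identical copies.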
